A study of Drosophila melanogaster with 4 samples.

Results

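Whole adult males homozygous for the 51B allele of Ago2 were compared with males carrying 51B over a TM3 balancer, by mRNA sequencing in Drosophila melanogaster. Every gene of the deposited table was taken that had quantification status OK in both 51B genotypes and a mean of at least 1 FPKM over them. FPKM are fragments per transcript length and per mapped fragments of the library. Of 13990 genes, 626 were left out for their status and 2432 for a low mean, which left 10932. AlstR, with a mean of 0.998 FPKM, lay just outside the minimum, and Spindly, with 1.001 FPKM, just inside it.

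The heterozygote's genotype was 51B / TM3, Ser, y+ and the homozygote's 51B / 51B. Another allele of the same gene supplied values to set beside them, from a heterozygote of genotype V966M / TM3,twi-GFP,Sb,Ser and from the V966M/ V966M homozygote. All were males of 0 to 16 hr, grown at 25 °C, and total RNA was extracted with Trizol before standard Illumina library construction. A balancer is a rearranged chromosome with visible markers. TM3 is a version of chromosome 3 and was carried by the heterozygotes alone, so the Ago2 genotype and the balancer cannot be told apart. With 1 deposited value per gene and genotype there was no replicate check, and no test or p-value was possible.

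Argonaute 2 binds small interfering RNAs (siRNAs), which Dicer-2 and its partner proteins cut from double-stranded RNA, and uses them as guides to cut matching RNAs. In flies this pathway is known for defence against viruses and for silencing of transposons and of some host genes through hairpin and antisense transcripts. Whole-fly RNA of a young male mixes testis, accessory gland, gut, fat body, muscle, nervous system and cuticle-forming epidermis.

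FPKM summed to 493829 for the 51B heterozygote and to 573226 for its homozygote. The deposited interval around each value, whose level is not stated, had a median half-width of 15.6% and 29.2% of the value in that order, among genes of at least 5 FPKM. Read counts and depth are unknown, so this width was the only measure of precision. The log2 ratio of FPKM + 1 had a median of 0.08, and this median was subtracted from every gene's ratio. The resulting centred change is the log2 value given throughout, homozygote minus heterozygote. Male markers (roX1, roX2 and msl-2) had a median change of -0.01, and all 8 testis and all 8 accessory gland markers were above 0 FPKM in both genotypes. The level of 4 measurable ovary and female fat body markers summed to 18.6 FPKM in the heterozygote against 25.0 FPKM in the homozygote.

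A gene was called where its centred change was at least 2-fold and the deposited intervals, the homozygote's divided by the centring factor of 1.06, did not overlap. By this rule 148 of the 10932 genes were higher in the homozygote, 1.35% of those analysed, and 157 were lower, 1.44%, so that 2.79% were called in either direction. Left as deposited, without centring, the counts were 185 higher and 125 lower, so the share of higher genes among the called moved from 48.5% to 59.7%. A change of at least 4-fold was reached by 20 higher and 17 lower genes, and of at least 8-fold by CG10102, Arc1 and Jon74E. Another 938 genes had intervals apart with less than a 2-fold change, 488 of them above 0. The middle 90% of all genes lay between -0.63 and 0.60. A deposited locus was shared with another gene by 45 of the 148 higher and 41 of the 157 lower genes, against 3951 of the 10932 analysed. Shared loci are pointed out below for some genes only. They also apply to aay, Eip75B, IM10, CG11796, Hsp22, Nmdmc, asparagine-synthetase, Obp99c and AttC, among others. Genes listed in the deposited table under a CG or CR number made up 89 of the 148 higher and 98 of the 157 lower genes, against 6322 of the 10932 analysed. Some of them have since been named.

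**Figure D1:**
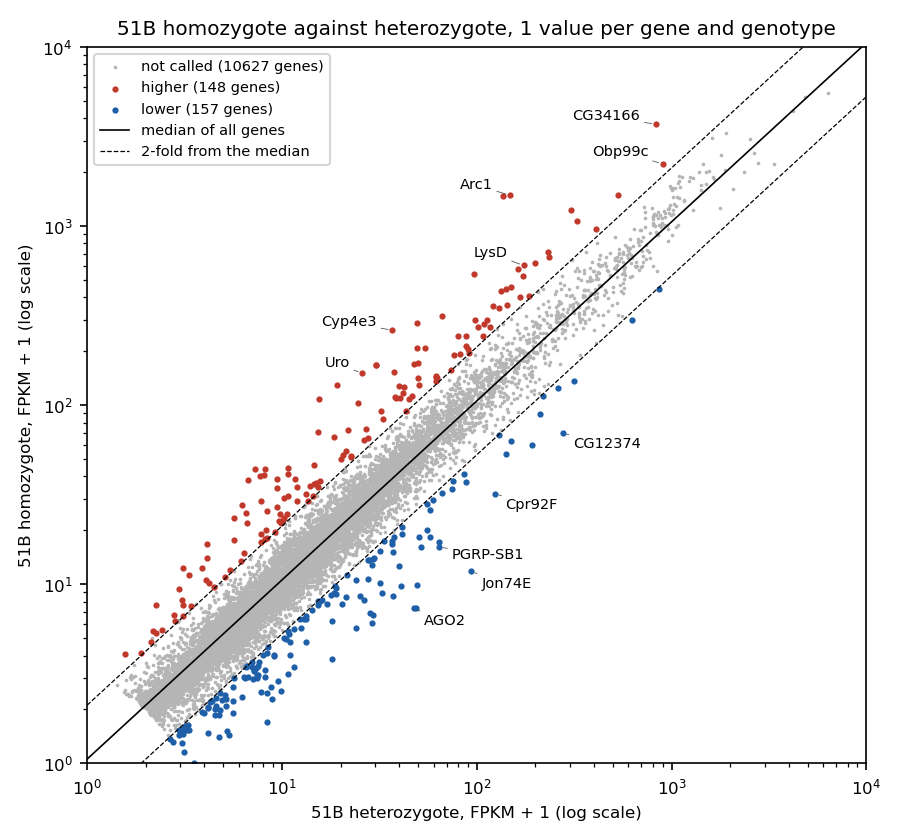
Each point is 1 gene, with its level in the 51B heterozygote on the horizontal axis and in the 51B homozygote on the vertical axis, both as FPKM + 1 on log scales. The solid line is the median ratio of all genes and the dashed lines lie 2-fold from it; 148 genes called higher (red) and 157 called lower (blue) lie outside them, with CG34166 the highest red point and AGO2 and Jon74E among the blue points farthest from the line.

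AGO2, the targeted gene, was lower in the homozygote, and among the genes analysed Jon74E and Jon25Bi alone had a lower change. It was at 46.5 FPKM (deposited interval 39.7 to 53.3) in the heterozygote against at 6.33 FPKM (4.50 to 8.16) in the homozygote, a change of -2.78. In V966M its level was 150.02 FPKM with the balancer and 101 FPKM without. Transcript signal from the gene was thus lower but above 0 in the library labelled homozygous. Its partners in siRNA production were not called: Dcr-2, which cuts double-stranded RNA, changed by -0.26, r2d2, which helps load siRNAs, by -0.11, and loqs, another partner of Dicer proteins, by 0.10. No gene was called among 6 genes of the miRNA pathway (AGO1, Dcr-1, drosha, pasha, gw and Ranbp21, between -0.29 and 0.44) or 10 of the piRNA pathway that silences transposons in the germ line. Nor was any called among 8 genes that encode hairpin RNAs or are targets of their siRNAs, whose median was -0.32. At 2.79% of all genes called, counts of 0 in lists this small are no result about them. Within 250 kb on either side of AGO2, 36 genes were analysed and none was called, against 2.79% of all genes, and their changes lay between -0.72 and 0.43. In the wider window of 1000 kb on either side, 189 genes were analysed, and CG12310, CG13044, CG13075 and CG4842 were lower. AGO2 shares its deposited locus on 3L, from 15547217 to 15556163 in dm3, with CG7739, whose change was 0.26.

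Digestive enzyme genes were prominent among the lower genes, and the Jonah family held more of them than any other list. The Jonah genes encode serine proteases of the gut, and 10 of the 15 analysed were lower, with 0 higher and a family median of -1.33, against 0 over all genes. The lowest was Jon74E, at 92.2 FPKM (78.3 to 106) in the heterozygote against 10.8 FPKM (7.29 to 14.3) in the homozygote, a change of -3.06. Jon25Bi, at 47.9 FPKM (38.1 to 57.7) against 6.37 FPKM (4.06 to 8.68), followed with -2.81. In the V966M stock the same gene was at 46.9 and 30.8 FPKM, so for Jon25Bi the 51B homozygote stood apart from the other 3 genotypes. Jon44E, with 17.1 FPKM (14.2 to 20.1) and 2.82 FPKM (1.64 to 4.001), had a change of -2.32. The stocks differed as well. In the V966M heterozygote and homozygote Jon74E was at 432 and 297 FPKM and Jon44E at 49.4 and 32.4 FPKM, all above the 51B heterozygote. Jon25Bii, at 26.8 FPKM in the 51B heterozygote, lay between its V966M levels of 37.5 and 20.7 FPKM. Jon99Ciii and Jon99Cii, near-identical neighbours whose fragments could be exchanged, were at 141 and 149 FPKM in the heterozygote against 52.7 and 61.8 FPKM in the homozygote. The members with the most transcript were not called: Jon65Aiv stood at 497 FPKM (409 to 585) and 454 FPKM (303 to 605), and Jon65Aiii at 356 and 325 FPKM, both with a change of -0.21. Jon99Fii, at 55.1 and 58.8 FPKM, was not called, whereas its neighbour Jon99Fi, at 65.5 and 31.4 FPKM, was lower. The Jonah family therefore moved unevenly, from -3.06 to 0.26.

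Other gut hydrolases also included lower genes. Among 15 trypsin and related protease genes only zetaTry was lower, at 11.96 FPKM (9.66 to 14.3) against 5.37 FPKM (3.33 to 7.40), and the family median was -0.15. The abundant trypsin genes alphaTry (271 and 292 FPKM) and betaTry (261 and 236 FPKM) were not called. CG12374 and CG8562, annotated as carboxypeptidase genes, were at 275 FPKM (224 to 325) and 28.5 FPKM (24.1 to 32.8) in the heterozygote. In the homozygote they were at 68.8 FPKM (45.6 to 92.0) and 5.72 FPKM (3.77 to 7.67), with changes of -2.06 and -2.21. Magro, a gut lipase and cholesterol esterase listed as CG5932, fell from 36.2 FPKM (30.5 to 41.8) in the heterozygote to 7.63 FPKM (5.21 to 10.05) in the homozygote; its deposited locus is shared with 6 other genes. The adjacent lipase genes CG6295 and CG17192 were lower by -1.73 and -1.71, and so was their neighbour CG31077, by -1.36. The alkaline phosphatase gene Alp2, listed as CG3290, was at 31.1 and 9.13 FPKM. Peritrophin-15a, a protein gene of the chitin-lined membrane around the gut contents, was at 17.0 FPKM (13.1 to 21.0) against 5.21 FPKM (2.80 to 7.63). It was the single lower gene among 27 chitinase and peritrophic genes, of which Cht4 and Idgf3 were higher and whose median was 0.03, and no amylase or maltase gene was called among 6.

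Of 8 genes in a gut epithelium list, 7 lay above 0. The changes of all 8 lay between -0.02 and 0.62, and their median was 0.26. The list includes the transcription factor genes pros, nub, cad and Ptx1, and whether their transcripts came from the gut was not tested. None of the 8 was called, which at 2.79% of all genes called is no result by itself. The brush border gene mex1 was at 6.76 and 7.60 FPKM, the myosin gene Myo31DF at 12.4 and 16.0 FPKM, and GATAe, a transcription factor gene of the midgut, at 6.60 and 11.4 FPKM. The 5 midgut markers summed to 558 FPKM in the heterozygote against 563 FPKM in the homozygote. Most of that sum is alphaTry and betaTry, which are digestive enzyme genes themselves, so it is no separate measure of the epithelium. In whole-fly RNA, fewer cells of a type and less RNA per cell cannot be told apart.

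Lysozyme genes ran opposite to the proteases. The 7 analysed encode enzymes that split bacterial cell walls, most of them digestive in the larval or adult gut, and 6 were higher and 1 lower, with a median of 1.53. LysD was at 173 FPKM (147 to 199) in the heterozygote against 602 FPKM (394 to 809) in the homozygote, LysB at 149.6 and 459 FPKM, and LysE at 39.0 and 127 FPKM. LysX reached 3.14 FPKM from 0.884 FPKM, and LysS 13.9 FPKM from 5.36 FPKM. LysP, which is known for expression in the adult salivary gland, was the exception, at 36.1 FPKM (30.2 to 42.1) against 14.1 FPKM (9.14 to 19.01), a change of -1.38. LysC, LysD, LysE, LysP and LysS share 1 deposited locus on 3L and some are near-identical copies, so the division of fragments between single members is uncertain; leaving out genes with a shared locus left LysB and LysX, both higher. In the V966M stock LysD stood at 547 FPKM (412 to 681) in the heterozygote, inside the interval of the 51B homozygote, and at 276 FPKM in the homozygote.

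Bacterial sensing and immune effector genes were mostly lower or not called. Of 14 peptidoglycan recognition genes, 4 were lower and 0 higher. These 4 are amidase genes, whose products cleave bacterial peptidoglycan, and those of the PGRP-SC group are known to damp the Imd immune response. PGRP-SB1 was at 63.0 FPKM (53.3 to 72.7) against 15.2 FPKM (10.1 to 20.2), and PGRP-SC2 at 50.7 FPKM (42.4 to 59.0) against 15.2 FPKM (9.89 to 20.4). The near-identical PGRP-SC1a and PGRP-SC1b were at 10.5 and 9.78 FPKM in the heterozygote against 2.44 and 2.14 FPKM in the homozygote. The stocks differed as well, and both V966M genotypes lay above the 51B heterozygote for all 4 genes. PGRP-SC1a, for example, was at 62.4 FPKM in the V966M heterozygote and 40.0 FPKM in the V966M homozygote. The sensors PGRP-SA, PGRP-SD and PGRP-LC had changes of 0.46, -0.02 and 0.30 and were not called, and the median of all 14 was -0.05 (0.03 as deposited).

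Among 23 antimicrobial peptide genes 4 were lower and 2 higher, with a median of -0.60. AttC (7.16 and 2.03 FPKM), CecA1 (6.60 and 2.66 FPKM), IM4 (130 and 67.0 FPKM) and IM14 (32.3 and 16.5 FPKM) were the lower members. Dro went the other way, at 17.5 FPKM (13.2 to 21.9) in the heterozygote against 65.2 FPKM (42.7 to 87.7) in the homozygote, as did IM10 at 1.84 and 5.24 FPKM. Left as deposited, IM4 and IM14 were not called, and with a pseudocount of 5 FPKM none of the 4 lower members was. In V966M 25 genes of this list were analysed, with 3 higher, 2 lower and a median of 0.14, against 0.181% of all V966M genes called. Both V966M genotypes lay above the 51B heterozygote for each member called in 51B. AttC was at 62.4 FPKM in the V966M heterozygote and 28.3 FPKM in the V966M homozygote. Short secreted peptide genes of the Bomanin family outside that list, CG18107 (BomS4) and CG15068 (BomS6), were also lower, at 58.3 and 35.6 FPKM against 28.7 and 15.8 FPKM. CG13422, now named GNBP-like3, fell to 8.76 FPKM (5.29 to 12.2) from 39.8 FPKM (32.7 to 46.9) in the heterozygote. Of 23 Toll and Imd pathway genes only modSP, a protease gene at the start of the Toll-activating cascade, was called, at 25.5 FPKM (21.7 to 29.3) against 62.8 FPKM (41.2 to 84.4), and 17 of the 23 lay above 0.

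The Turandot genes, which encode secreted proteins induced by stress through JAK-STAT signalling, were below 0 in the 4 that could be analysed of 7 in the table, the other 3 being left out for low values. TotC was at 62.9 FPKM (50.2 to 75.6) in the heterozygote against 16.1 FPKM (10.03 to 22.2) in the homozygote, and TotX at 7.89 and 1.28 FPKM; both were called lower. TotA (147 and 81.9 FPKM) and TotM (6.56 and 3.33 FPKM) had changes of -0.91 and -0.88, short of the 2-fold limit. In V966M TotC was at 17.6 and 12.8 FPKM in the heterozygote and the homozygote, so the 51B heterozygote stood above the other 3 genotypes.

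Seminal fluid protein genes lay mostly below the median of all genes. These secreted products of the male accessory gland and ejaculatory bulb travel with sperm to the female. Of 51 analysed, 47 had a change below 0, 8 were called lower and 0 higher, and the median was -0.65. Sfp87B, at 865 FPKM (727 to 1003) against 447 FPKM (320.1 to 574), and Peb, the mating plug protein gene, at 629 FPKM (516 to 742) against 297 FPKM (204 to 389.5), had the largest absolute losses among called lower genes. The ejaculatory bulb gene PebII was at 259 and 123 FPKM, Sfp93F at 211 and 88.6 FPKM, and Acp24A4 at 54.3 FPKM (44.2 to 64.5) and 19.2 FPKM (11.4 to 27), a change of -1.53. Sfp65A, Sfp24Ba and Sfp24Bc made up the other lower members, at 13.3, 3.29 and 3.95 FPKM in the heterozygote against 6.19, 1.22 and 1.25 FPKM. Acp70A, the sex peptide gene, was at 32.7 FPKM (25.0 to 40.5) and 22.9 FPKM (13.6 to 32.2), with overlapping intervals and a change of -0.58. Acp32CD, at 115 and 205 FPKM, had the highest change of the group, 0.74, and was not called. With a pseudocount of 5 FPKM 4 members were called lower, and as deposited 5 were. The 8 accessory gland markers, all of which belong to the same list, summed to 1496 FPKM in the heterozygote against 1206 FPKM in the homozygote. In V966M 49 genes of this list were analysed, with a median of -0.23 and 0 calls.

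Genes of the germ line itself were counted apart from those of the accessory gland. None of 31 spermatid and sperm genes and none of 12 testis meiotic arrest genes was called, and their medians were -0.19 and -0.02. With 2.79% of all genes called, a count of 0 in lists of this size is no result about them. The summed level of 6 analysed testis markers was 1907 FPKM in the heterozygote against 2253 FPKM in the homozygote.

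The 12 highest changes upward were those of CG10102, Arc1, 4 genes of detoxification, cuticle or metabolism and 6 genes in none of the lists. Arc1, which encodes a capsid-forming relative of retroviral Gag proteins, was at 147 FPKM (116 to 177) in the heterozygote against 1486 FPKM (947 to 2025) in the homozygote, a change of 3.25. CG10102 is listed at the deposited locus of Arc2 with levels close to those of Arc1, at 135 and 1475 FPKM, so which gene its values stand for is uncertain. Arc2 itself was also higher, at lower levels of 6.69 and 39.4 FPKM, a change of 2.31. The other genes of a neuronal activity-regulated list that holds Arc1 did not follow: the remaining 6 of 7 were not called and lay between -0.15 and 0.41, among them Hr38, a standard activity marker. None of 18 synaptic and 28 neuropeptide genes was called either, but at 2.79% of all genes called this is no result about them. Of the 6 genes outside the lists, CG8620 was at 14.6 FPKM (12.8 to 16.3) in the heterozygote against 107.7 FPKM (98.8 to 117) in the homozygote and CG6908 at 18.2 FPKM (14.9 to 21.5) against 129 FPKM (87.7 to 170), with changes of 2.73 and 2.68. CG14245 was at 48.6 and 287 FPKM, CG42365 at 5.74 and 37.02 FPKM, CG13311 at 29.5 and 166 FPKM, and CG13905 at 29.6 and 166 FPKM, and the deposited loci of CG14245 and CG42365 are shared. In each of these 6 genes the 51B homozygote lay above the other 3 genotypes. CG34166, a gene with no given name on 2L, had the largest absolute gain of any gene. It stood at 829 FPKM (694 to 964) in the heterozygote against 3701 FPKM (2413 to 4989.5) in the homozygote, against 629 and 674 FPKM in the V966M pair. CG14292 (302 and 1230.4 FPKM), CG17298 (532 and 1484 FPKM) and the mucin-related gene Mur18B (324 and 1073 FPKM) were other abundant higher genes.

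Cytochrome P450 genes, whose enzymes oxidise toxins, hormones and lipids, split in both directions, with 4 higher and 3 lower of 66 and a median of -0.05 (0.03 as deposited). Cyp4e3 was at 35.8 FPKM (29.6 to 42.05) in the heterozygote against 261 FPKM (174 to 348) in the homozygote, a change of 2.75. Cyp309a1 followed at 9.77 and 43.7 FPKM, Cyp6a8 at 2.88 and 11.3 FPKM, and Cyp9b2 at 12.3 and 30.9 FPKM. On the lower side were Cyp4d14, Cyp4d21 and Cyp313a1, with changes of -1.13, -1.09 and -1.07. Cyp4d21 is the sex-specific enzyme gene also known as sxe1. Cyp313a1 was not called as deposited, and with a pseudocount of 5 FPKM Cyp4e3 and Cyp309a1 alone kept their calls.

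Conjugating enzyme genes split likewise. Of 19 glutathione transferase genes, GstD2 (6.80 and 28.1 FPKM) and GstD5 (2.12 and 11.3 FPKM) were higher and their cluster neighbours GstD3 (8.11 and 2.98 FPKM) and GstD8 (2.31 and 0.641 FPKM) lower. GstD1, the most abundant member of that cluster on 3R, was at 362 FPKM (303 to 421) and 715 FPKM (466 to 963), and its change of 0.90 fell short of the limit. UDP-glycosyltransferase genes carrying a Ugt symbol in the table were below 0 in 8 of 10, with Ugt37b1, Ugt35b and Ugt86Dd lower and a median of -0.60. With a pseudocount of 5 FPKM none of these 3 was called, nor were GstD3 and GstD8. Called genes of that family under CG symbols went the other way: CG5724 (Ugt37A2) was at 7.04 FPKM (5.66 to 8.42) and 39.9 FPKM (28.6 to 51.1), and CG15661 (Ugt49C1) at 12.9 and 34.5 FPKM.

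Enzymes of urate and tyrosine breakdown were among the most raised genes, singly rather than as pathways. Uro, the urate oxidase gene of the Malpighian tubules, was at 24.8 FPKM (20.5 to 29.1) in the heterozygote against 149.5 FPKM (106 to 193) in the homozygote, a change of 2.47. No other gene was called among 13 of purine metabolism or 10 of the tubules. ry, which encodes the xanthine dehydrogenase that makes urate, was at 14.8 and 9.14 FPKM, and the tubule markers ZnT35C and NaPi-T had changes of 0.61 and -0.48. CG11796, now named Hpd and encoding the dioxygenase at the second step of tyrosine breakdown, was at 95.5 FPKM (80.9 to 110.2) against 541 FPKM (344 to 738). It was the single call among 6 tyrosine breakdown genes, a list drawn up after its values were seen, where hgo, for a later step, had 11.1 and 17.2 FPKM and Hn, for phenylalanine hydroxylase, 30.4 and 33.9 FPKM.

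Some of the higher genes take part in serine and one-carbon metabolism or in the ATF4 stress response. ATF4, encoded by crc, is a transcription factor whose translation rises when amino acids are short or proteins misfold. The list was put together after its values had been seen, so its count describes and supports nothing: 6 of 15 were higher, 0 lower, and the median was 0.53. aay, which encodes the phosphatase that completes serine synthesis, was at 162 FPKM (136 to 187) in the heterozygote against 576 FPKM (358 to 795) in the homozygote. Nmdmc, for a mitochondrial folate enzyme, was at 31.4 FPKM (27.6 to 35.2) and 92.2 FPKM (68.3 to 116), and Shmt, listed as CG3011 and not called, at 73.4 and 124 FPKM. Xrp1, a bZIP transcription factor gene, was at 119.6 FPKM (115 to 124) and 355 FPKM (316 to 395). Thor, the 4E-BP translation inhibitor gene, was at 142 FPKM (121 to 164) and 362 FPKM (243 to 481), trbl, a pseudokinase gene, at 13.6 and 45.2 FPKM, and asparagine-synthetase at 8.21 and 18.7 FPKM. The homozygote was above all 3 other genotypes for each of these 6 genes. The transcript of crc itself was at 226 FPKM (192 to 259) and 251 FPKM (174 to 327).

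Other stress genes moved in part. The peroxiredoxin copies Prx2540-1, Prx2540-2 and CG12896, which reduce peroxides and lie close together on 2R, were at 96.9, 197 and 79.3 FPKM in the heterozygote against 297, 621 and 241 FPKM in the homozygote. Fragments of such similar copies could be exchanged between them. The remaining 5 of 8 peroxiredoxin genes were not called, among them Jafrac1 at 164 and 207 FPKM. Gadd45, a stress-kinase regulator gene, was at 3.09 FPKM (2.37 to 3.80) and 9.62 FPKM (6.41 to 12.8), and Ets21C, a transcription factor gene induced by JNK signalling, at 1.13 and 3.78 FPKM; all 8 genes of that list were above 0, and with a pseudocount of 5 FPKM neither gene was called. These lists too were drawn up after their values were seen. Hsp22, a mitochondrial small heat shock gene, was at 140.2 FPKM (119 to 162) and 443 FPKM (266 to 620.2), the single call among 8 small heat shock genes. None of 11 Hsp70 family genes was called, against 2.79% of all genes. Hsp70Aa at 3.86 and 9.05 FPKM was close to the limit and was called as deposited.

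Fasting and fat body genes were called in both directions. Of 13 genes of insulin signalling and fasting, Thor and Pepck were higher, the latter, a gluconeogenesis gene, at 407 FPKM (328 to 485) and 958 FPKM (604 to 1312). The insulin-binding protein gene ImpL2 (70.6 and 138 FPKM) and the sugar-sensing factor gene sug (12.2 and 26.8 FPKM) had changes of 0.88 and 0.997 and were not called; sug was called as deposited. Larval serum protein genes, expressed in fat body and still present in newly emerged flies, had Lsp1beta (41.2 and 126 FPKM) and Lsp2 (112 and 298 FPKM) higher and Lsp1gamma (2.34 and 0.543 FPKM) lower. The median of that group of 6 was 0.55, and it was 0.48 in V966M, where 0 were called. Of 8 analysed genes of the adult fat body and lipid transport, 6 lay below 0 and the median was -0.22. In that list Lsd-1, a lipid droplet coat gene, was higher at 44.2 and 107 FPKM, and fit was lower at 1.95 and 0.449 FPKM, a call that ended with a pseudocount of 5 FPKM. Eip75B, an ecdysone-induced nuclear receptor gene, was at 19.1 FPKM (18.1 to 20.1) and 49.2 FPKM (44.1 to 54.3), the single call among 21 ecdysone response genes, of which 17 lay above 0.

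Cuticle protein genes scattered widely around a median of 0.20. Such symbols were carried by 121 genes, of which 64 were left out for low values and 56 were analysed, and 3 were higher and 5 lower. Cpr64Ac was at 6.27 FPKM (4.80 to 7.75) against 42.8 FPKM (30.3 to 55.3), Cpr67Fb at 9.21 and 29.4 FPKM, and Cpr49Ab at 235 FPKM (195 to 275) and 667 FPKM (445 to 889). Cpr92F ran the other way, at 123 FPKM (103 to 143) in the heterozygote against 31.0 FPKM (21.5 to 40.4) in the homozygote, a change of -2.04, and Lcp1 was at 4.61 and 0.918 FPKM. Cpr66Cb, Cpr47Ea and Cpr11B had changes of -1.15, -1.07 and -1.06, the last pair not called as deposited, and Cpr92F was the single lower member with a pseudocount of 5 FPKM. These genes are switched on and off around emergence of the adult, and the age window of 0 to 16 hr was the same for all genotypes by the labels; whether ages differed within it was not tested.

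Odorant-binding protein genes were called in both directions. Obp99b (230.5 and 719 FPKM), Obp99c (899 and 2225 FPKM) and Obp99d (8.45 and 33.6 FPKM), which lie close together on 3R, were higher, and Obp83cd (8.94 and 1.53 FPKM) and Obp83ef (4.61 and 1.23 FPKM), which share a locus elsewhere on 3R, were lower. The other 24 of 29 were not called, and the family median was 0.00. In the eye, 14 of 18 phototransduction genes lay above 0 with a median of 0.36. Among them ninaD, a scavenger receptor gene for carotenoid uptake that is needed to make visual pigment, was lower, at 35.6 FPKM (32.6 to 38.6) against 16.5 FPKM (14.6 to 18.5). The opsin genes of the R8 photoreceptor split, Rh6 at 39.1 FPKM (33.1 to 45.1) against 108 FPKM (72.7 to 144) and Rh5 at 10.03 FPKM (8.18 to 11.9) against 3.75 FPKM (2.27 to 5.23). ninaE, the opsin gene of the outer photoreceptors, was at 563 and 694 FPKM and was not called.

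Housekeeping groups held 1 call. It was eIF6, a factor gene for ribosome assembly and translation whose deposited locus is shared, at 36.9 FPKM (31.3 to 42.5) in the heterozygote against 110.7 FPKM (74.1 to 147) in the homozygote, and the other 47 of 48 translation factor genes were not called. No ribosomal protein, proteasome, respiration or muscle contractile gene of these lists was called, against 2.79% of all genes. Of 84 cytosolic ribosomal protein genes, 63 lay above 0 with a median of 0.21, and the largest of these changes were those of RpL13A (1608 and 3108 FPKM) and RpL8 (1089 and 1915 FPKM), at 0.87 and 0.73. Mitochondrial ribosomal protein genes sat on the other side, with 9 of 70 above 0 and a median of -0.23. The medians were -0.11 for 30 proteasome genes, -0.19 for 20 genes of respiration and ATP synthase, and -0.16 for 25 muscle contractile genes. In V966M the cytosolic and mitochondrial ribosomal groups had medians of -0.12 and 0.02.

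**Figure D2:**
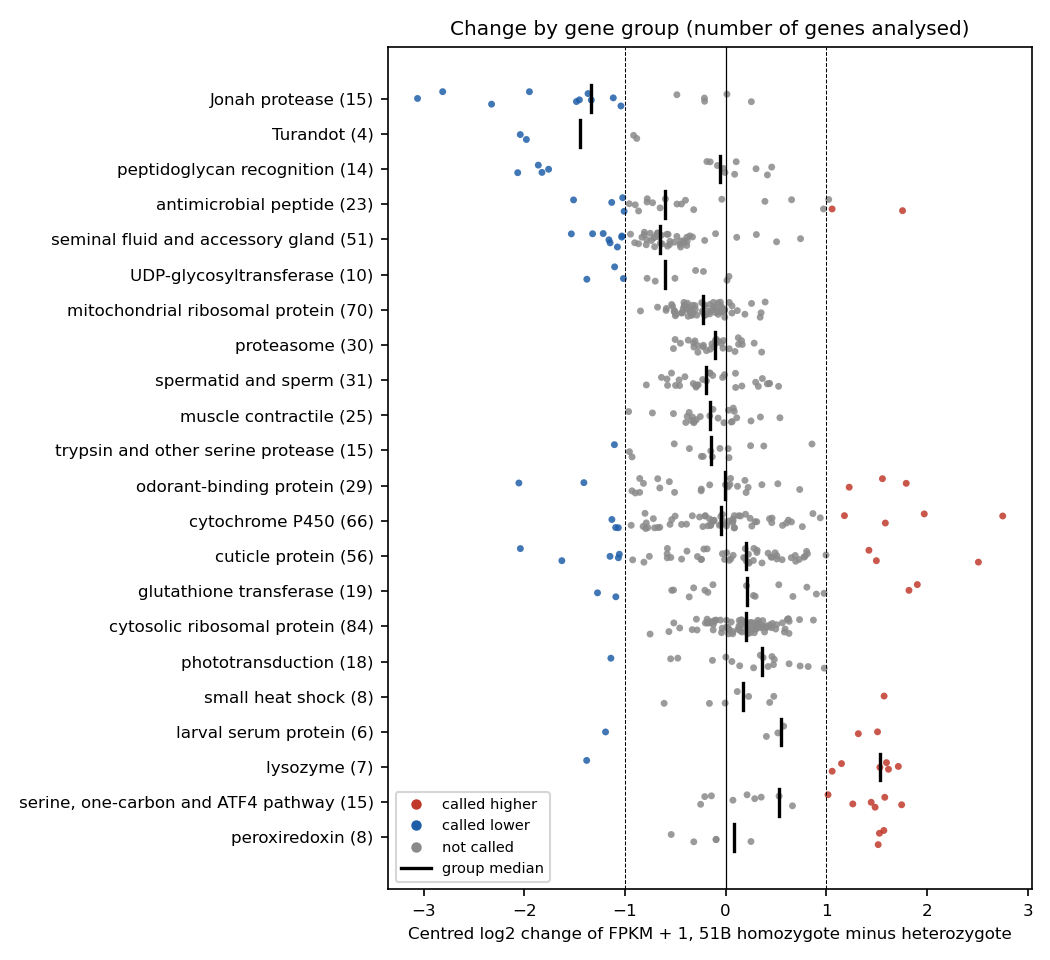
Each point is 1 analysed gene of the group named at the left, placed by its centred log2 change (51B homozygote minus heterozygote), with called genes in colour, a bar at the group's median and dashed lines at 2-fold. The Jonah proteases, Turandot genes and seminal fluid genes lie mostly left of 0, the lysozymes right of it, and detoxification, cuticle and odorant-binding genes spread to both sides.

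Called genes also stood next to each other on the chromosomes. Runs of at least 3 called genes of 1 direction, consecutive among analysed genes in order of deposited locus, numbered 6. Of these, 4 are the LysB to LysE, Arc, Jon25B and Jon99C clusters. The LysB to LysE and Arc runs cover 2 deposited loci each. Genes that share a locus were ordered by symbol, so LysP, lower at the locus of LysC to LysE, falls after that run. The fifth, on 3R from 22825480 to 22844009, holds CG31077 and the lipase genes CG6295 and CG17192, all lower. The sixth, on 3R from 15432976 to 15441506, holds CG17751 (7.22 and 43.0 FPKM), CG17752 (13.9 and 35.7 FPKM) and CG16727 (5.64 and 21.1 FPKM), all higher.

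Genes were also described by chromosome, since the heterozygote alone carried the balancer. On 3L and 3R, the arms of chromosome 3, 78 of 4787 genes were higher and 79 lower, 3.28% called. On 2L, 2R, X and 4 together, 70 were higher and 76 lower of 6098 genes, 2.39%. Neither count includes genes on sequence listed apart as heterochromatin, such as 3RHet, of which some were called lower. By arm the share called was 2.95% on 3L and 3.53% on 3R, against 2.53% on 2L and 3.19% on 2R, so 2R lay above 3L. The marker genes y, lower at 3.53 and 1.01 FPKM, and e, higher at 73.0 and 156 FPKM, were called among 5 balancer-related genes. The 51B heterozygote's balancer carries y+ by its label. In V966M, whose balancer label names no y+, y was at 12.2 and 8.30 FPKM, both above the 51B heterozygote, and e at 81.3 and 53.5 FPKM. The deposited locus of y holds 13 genes, and the part of y+ in its values was not tested. X had 12 higher and 12 lower of 1774 genes, 1.35% called, with a median of 0.09.

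Genes of chromosome 4 lay below the median of all genes by less than the 2-fold limit. Of its 75 analysed genes, 74 lay below 0, with a median of -0.38 and a range of -0.98 to 0.03, and 0 were called. Rfabg, a lipoprotein gene, was at 36.5 FPKM (30.2 to 42.8) against 19.1 FPKM (13.1 to 25.1), RpS3A, the ribosomal protein gene there, at 468 FPKM (391 to 545) against 334 FPKM (234 to 435), and ci, the Hedgehog pathway factor gene, at 3.99 and 2.78 FPKM. The V966M comparison, which shares no library with this one, had a median of -0.37 over 76 genes of chromosome 4, with 68 below 0. Under the other processing choices the share below 0 was 97.5% to 100% in 51B.

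**Figure D3:**
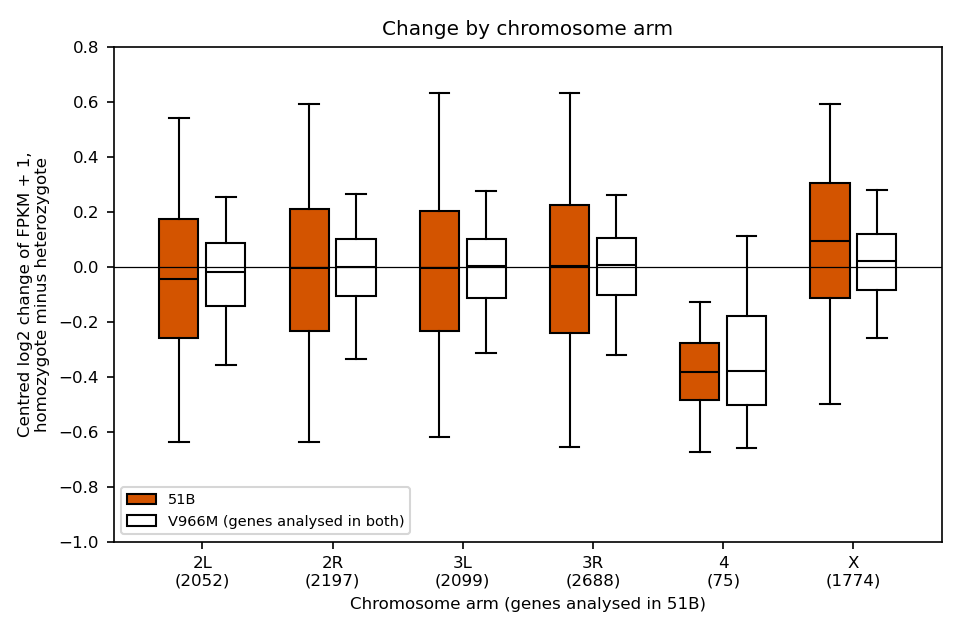
Boxes show the centred log2 change (homozygote minus heterozygote) of genes on each chromosome arm, filled for 51B and open for V966M, with the median, the middle 50% and whiskers from the 5th to the 95th percentile. The 51B medians of 2L, 2R, 3L, 3R and X lie between -0.04 and 0.09, and those of chromosome 4 are -0.38 and -0.37.

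Calls in each direction were spread unevenly over expression levels. Among 3023 genes with a mean of 1 to 5 FPKM, 0.430% were higher and 2.08% lower, and among 824 genes with a mean of at least 100 FPKM, 5.70% were higher and 1.09% lower. The median change of these abundant genes was 0.16. Adding 1 FPKM before the ratio understates the change of low genes, and the intervals of the homozygote had a median half-width of 39.5% in the lowest class and 30.9% in the highest. With a pseudocount of 5 FPKM the calls of LysS, LysX, asparagine-synthetase, Lsp1gamma, Obp83ef, Rh5, ninaD, y and e ended, and the call of e also ended with a mean of at least 5 FPKM or without genes that share a locus. Below 1 FPKM in one genotype were 25 of the 157 lower and 2 of the 148 higher genes.

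**Figure D4:**
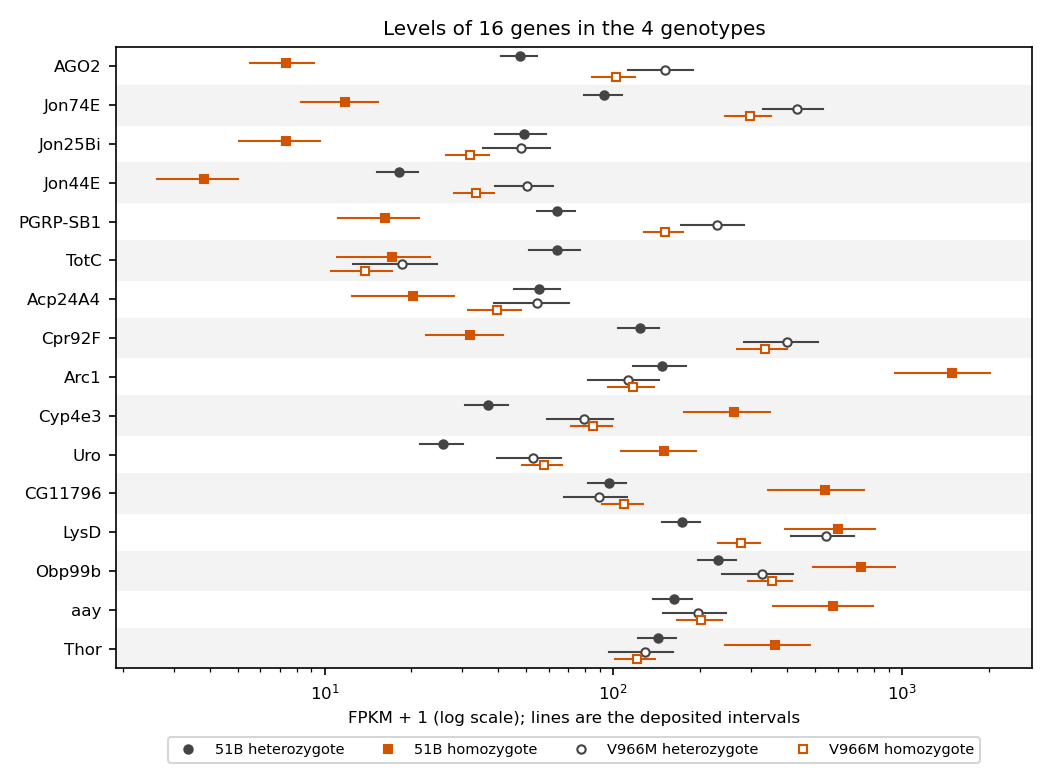
Levels of 16 genes in all 4 genotypes are shown as FPKM + 1 on a log scale, with lines for the deposited intervals, 51B in filled and V966M in open symbols. For Jon74E, Jon25Bi and Jon44E the 51B homozygote lies below the other 3 genotypes and for Arc1, Cyp4e3, Uro, aay and Thor above them, whereas for TotC the 51B heterozygote stands apart.

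In V966M few of these genes reached the same limits. By the same rule, centred on its own median of -0.25, 12 of 11079 genes were higher in the V966M homozygote, 0.108%, and 8 lower, 0.0722%, or 0.181% in either direction. Of the 148 genes higher in 51B, 144 were analysed in V966M, 103 lay above 0 there, their median was 0.15, and CG32857 and Cht4 were called higher. Of the 157 lower in 51B, 151 were analysed, 124 lay below 0, their median was -0.19, and none was called lower. Of all V966M genes, 50.0% lay above 0. Cht4, a chitinase gene, was at 4.65 FPKM (3.55 to 5.75) and 22.4 FPKM (16.2 to 28.7) in 51B and at 2.32 and 4.86 FPKM in V966M. CG32857, which shares its locus on X, was at 14.7 and 36.5 FPKM in 51B and at 0.0180 and 13.7 FPKM in V966M. CG32500, at the same deposited locus, went the other way and was called lower in 51B. It was at 20.3 and 7.46 FPKM in 51B and at 34.1 and 18.1 FPKM in V966M. The division of fragments between CG32857 and CG32500 is therefore uncertain. The spread of V966M changes was narrower, with the middle 90% of genes between -0.34 and 0.27.

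**Figure D5:**
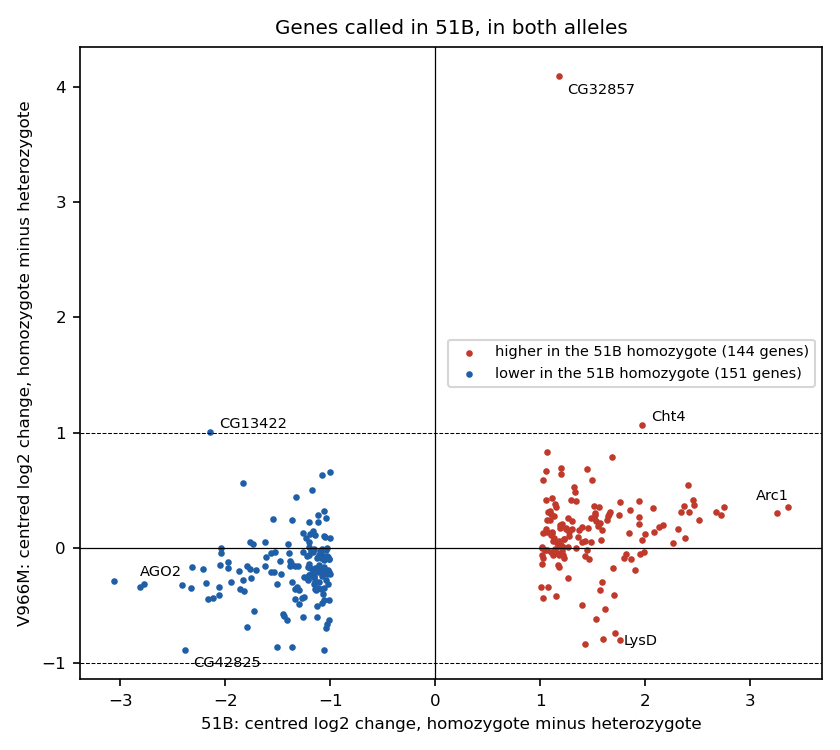
Each point is a gene called in 51B and analysed in V966M, with its centred log2 change in 51B on the horizontal axis and in V966M on the vertical axis (homozygote minus heterozygote in both); dashed lines mark 2-fold in V966M. Most of the 144 higher (red) and 151 lower (blue) genes lie within 1 of 0 on the vertical axis, and CG32857, Cht4 and CG13422 lie outside.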

How the data were processed

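The deposited table gives, per the file headers, 1 FPKM value per gene and genotype with an interval and a status. The submitters' processing notes name TopHat, Cufflinks and genome build dm3. Software versions, gene annotation and strandedness were not given in the sources used here. Although the design text speaks of duplicate sequencing (2 runs), there is 1 value per genotype, so n = 1. Because FPKM carry no counts, depth is unknown and the deposited interval stands in for precision.

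Genes with status OK in both 51B genotypes and a mean of at least 1 FPKM were kept, 1 FPKM was added, and the log2 ratio was centred on its median. A call needed a 2-fold centred change and intervals apart, with the homozygote's bounds divided by the centring factor. V966M was treated alike with its own centring. Locus starts were converted to count from 1. Present gene symbols came from a RefSeq table of a later assembly (Release 6), used for names only. Python 3.11.15, numpy 2.4.6, pandas 2.3.3 and matplotlib 3.10.9 were used, and the scripts were tested on simulated data.

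The genes compared, 63 gene lists and the naming rule were chosen with earlier results of these data known, and 4 lists (serine, one-carbon and ATF4; peroxiredoxin; tyrosine breakdown; JNK stress) were added after values were seen. The naming rule covered AGO2, the 12 most changed called genes each way, all members of lists with at most 6 analysed genes and up to 6 of every other list. The text names AGO2 and the most changed genes in full, but of the list members it names a part, picked with values known, and gives the rest as counts and medians. Acp32CD, Acp70A, CG12310, CG12374, CG13044, CG13075, CG13641, CG14292, CG15068, CG15661, CG16727, CG17192, CG17298, CG17751, CG17752, CG18107, CG3011, CG31077, CG32500, CG32857, CG3290, CG34166, CG4842, CG5724, CG6295, CG7739, Cpr11B, Cpr47Ea, Cyp313a1, IM14, Jon65Aiii, Jon65Aiv, Jon99Cii, Jon99Fi, Jon99Fii, LysX, Mur18B, PGRP-LC, PGRP-SD, RpS3A, Sfp24Ba, Sfp87B, ci, crc, daw and loqs were named after their values were seen. Alternatives were the values as deposited, other pseudocounts and minimum levels, no use of intervals, status OK in all 4 genotypes, and shared loci or arms 3L and 3R left out.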

Additional observations from a re-analysis of the deposited data

Results flagged for a closer look

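CG13422 was called in opposite directions in both alleles. Its centred log2 change was -2.14 in 51B, where it was at 39.8 FPKM in the heterozygote against 8.76 FPKM in the homozygote, and 1.002 in V966M, where it was at 108 and 183 FPKM. The difference between the alleles was not tested, since each genotype has 1 value.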

How the results depend on the processing

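The counts of 148 higher and 157 lower genes moved by more than 1.5 times under a few of the alternatives. A pseudocount of 5 FPKM gave 51 lower genes and a mean of at least 5 FPKM gave 98 lower. Leaving out 3L and 3R gave 70 higher and 79 lower, as fewer genes were then counted, and genes on 3RHet stayed in. The share of higher genes among the called was 48.5%, and it was 59.7% as deposited, 42.8% with a pseudocount of 0.1 FPKM and 68.3% with 5 FPKM. AGO2 stayed called with a change of -2.24 to -2.95 under each alternative that kept it; it is on chromosome 3 and shares its locus, so those settings give no value. No value changed sign while called. Among named genes, the pseudocount of 5 FPKM ended 47 calls, and values as deposited ended 10 and added 7. No paired analysis was possible because each genotype has 1 value and the labels carry no replicate numbers, and for the same reason no sample could be left out.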

Other observations

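Growth factor genes and genes in none of the lists were also called. Among the 12 lowest changes were those of BG642312 at 48.6 FPKM (44.1 to 53.1) in the 51B heterozygote against 8.86 FPKM (7.24 to 10.5) in the homozygote, CG7882 at 27.9 and 5.11 FPKM, CG34329, now named Diedel3, at 23.1 and 4.70 FPKM, and CG34291, at a shared locus, at 27.3 and 5.91 FPKM. For each of these 4 the 51B homozygote lay below the other 3 genotypes. CG42825, now named Srg2, was at 7.38 FPKM (5.91 to 8.85) in the 51B heterozygote against 0.693 FPKM (0.317 to 1.07) in the homozygote, 10.7-fold lower as deposited. CG13641, now named Srg1, went the other way, at 6.85 FPKM (5.13 to 8.58) against 18.2 FPKM (11.8 to 24.5). daw, which encodes an activin-like ligand of the TGF-beta family, was at 5.54 FPKM (4.93 to 6.14) and 23.9 FPKM (17.8 to 30.0). Idgf3, a chitinase-related growth factor gene, was at 48.7 FPKM (43.3 to 54.1) and 140.2 FPKM (102 to 178). Both libraries of V966M lay within 2-fold of the 51B heterozygote for daw and Idgf3, at 10.5 and 9.54 FPKM and at 47.2 and 41.2 FPKM.

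Of 15 analysed genes in a list of blood clotting, melanisation and lectin genes, 12 were not called, 1 was higher and 2 were lower, and their median was -0.16. fon, a clotting factor gene, was at 75.1 FPKM (64.4 to 85.8) in the heterozygote against 189.6 FPKM (128 to 251) in the homozygote. proPO-A1, a prophenoloxidase gene of crystal cells whose deposited locus is shared, was at 2.16 FPKM (1.65 to 2.67) and 0.164 FPKM (0.0537 to 0.273). lectin-28C, at 17.9 FPKM (14.3 to 21.6) and 8.48 FPKM (5.33 to 11.6), was the other lower member and was not called as deposited. The haemocyte markers Hml and Pxn, 2 of 4 listed that could be analysed, together had 12.4 FPKM in the heterozygote against 10.3 FPKM in the homozygote. The wider list of 6 analysed haemocyte genes, which includes both, went the other way, with 4 above 0 and a median of 0.11. That list summed to 76.6 FPKM in the heterozygote against 102 FPKM in the homozygote. The part of haemocytes in these values was not tested.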
